A study of Mus musculus with 11 samples.

Results

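The genes of AP-1 and of its BATF partners were examined for IRF4 and PU.1 binding in activated B cells. They were 8 of the 22238 protein-coding genes of the annotation: Batf, Batf3, Jun, Junb, Jund, Fos, Fosb and Fosl2. They were chosen by name, with earlier results of these data known. A peak counted as near a gene when its position lay in the gene or within 20 kb of it on mm9. By this rule 26 of 28867 IRF4 peaks and 147 of 133844 PU.1 peaks of the single libraries lay near a member. Merged over libraries, where peaks less than 200 bp apart were joined, they formed 17 of 20058 IRF4 regions and 57 of 57563 PU.1 regions. Nearness says nothing of whether a peak acts on the gene.

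AP-1 is a family of transcription factors that bind DNA as dimers of basic leucine zipper proteins. The Jun proteins pair with each other or with Fos proteins, and JunB or JunD can also pair with BATF or BATF3, which lack the activating parts of Fos. IRF4 binds DNA weakly alone and is known to bind beside BATF-Jun dimers at the AP-1-IRF composite element (AICE), or beside the Ets factor PU.1 at the Ets-IRF composite element (EICE). In lymphocytes BATF is known for its part in class switching of antibodies and in the differentiation of helper T cells. Batf, Batf3, Junb and Jund therefore encode proteins of dimers beside which IRF4 can bind. Jun and the Fos genes asked about here encode other AP-1 proteins.

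The cells were resting mature B cells purified from the spleen of B1-8i mice, whose gene-targeted antibody recognises the hapten NP, on the 129 background. They were cultured with NP-Ficoll, CD40L, IL-2, IL-4 and IL-5, so that every ChIP library comes from stimulated cells and there is no unstimulated group. Chromatin immunoprecipitation with sequencing was done at day 1 (activated cells, before differentiation) and day 3 (after differentiation toward plasma cells), with 3 libraries for IRF4 and 2 for PU.1 at each day. The authors' background was input DNA, a pool of 2 preparations made from peripheral or immature B cells. The labels do not say that the libraries came from separate mice or cultures, so the spread between them may be technical. In a mixed culture, binding in fewer cells and weaker binding in each cell cannot be told apart.

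The deposited lists give each peak's interval, its position and its highest enrichment, which is the authors' ratio to input. The IRF4 lists held between 825 and 9326 peaks, and the PU.1 lists between 27321 and 38052. IRF4 day 1 replicate 1, with 825 peaks, stood apart from the other day 1 lists of 9326 and 8929. The lists hold no read counts, so depth is unknown, and a missing call does not show that a site was free. The lowest enrichment listed was between 15.0 and 21.9 for IRF4 and between 14.9 and 15.1 for PU.1. For each factor and day the authors also gave a group list, of 2496 and 1964 IRF4 peaks and 21966 and 21382 PU.1 peaks on days 1 and 3. Its lines repeat lines of 1 or 2 libraries, so enrichments are given here per library and are compared only within a list, by rank. Among cell type markers, 6 of 7 B cell genes and 0 of 6 T cell genes had an IRF4 peak of the day 1 group list within 20 kb, beside 2 of 6 myeloid and 0 of 4 erythroid genes and 10.0% of all coding genes. On day 3 these counts were 2, 0, 1 and 0, beside 8.46%. PU.1 did not separate the B and T cell genes in this way: it lay near 7 of 7 B cell, 5 of 6 T cell and 4 of 6 myeloid genes on both days and near 2 and 1 of 4 erythroid genes, beside 52.2% and 54.4% of all coding genes. Binding near a marker is not its expression.

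None of the members' 4 regions called in at least 2 IRF4 libraries held a full composite element. An EICE was in 2 regions called in 1 IRF4 library each. Such a lack is common, since 22.8% of all IRF4 regions called in at least 2 libraries held an EICE. The sequences at these places and at 2 promoters are given first. Each is read 5′ to 3′ from the mm9 reference, 200 bp around the middle position of an IRF4 region or the 150 bp before a gene start, on the strand of the named gene. Capitals mark the Ets core GGAA, the IRF core GAAA and any full motif, on either strand, so that TTCC and TTTC are the same letters read from the other strand. The first 4 regions are those called in at least 2 IRF4 libraries, at chr12:87051702-87051901 (plus strand), chr1:192938909-192939108 (plus strand), chr1:192939729-192939928 (plus strand) and chr8:87509811-87510010 (minus strand). The next 2, at chr4:94730389-94730588 and chr7:19885821-19886020 (both minus strand), hold an EICE and were called in 1 IRF4 library each. The last 2 are the promoters at chr8:87502618-87502767 (minus strand) and chr12:86814690-86814839 (plus strand), where PU.1 was called in every library.
Batf, 24.2 kb past the start: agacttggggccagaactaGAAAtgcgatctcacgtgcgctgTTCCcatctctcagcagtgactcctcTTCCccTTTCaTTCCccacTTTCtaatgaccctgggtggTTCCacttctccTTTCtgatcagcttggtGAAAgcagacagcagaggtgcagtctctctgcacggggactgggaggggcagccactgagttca
Batf3, 16.7 kb past the start: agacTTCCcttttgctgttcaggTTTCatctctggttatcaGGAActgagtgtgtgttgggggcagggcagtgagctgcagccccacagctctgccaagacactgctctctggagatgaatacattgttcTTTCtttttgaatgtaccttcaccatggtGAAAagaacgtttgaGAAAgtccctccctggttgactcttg
Batf3, 17.5 kb past the start: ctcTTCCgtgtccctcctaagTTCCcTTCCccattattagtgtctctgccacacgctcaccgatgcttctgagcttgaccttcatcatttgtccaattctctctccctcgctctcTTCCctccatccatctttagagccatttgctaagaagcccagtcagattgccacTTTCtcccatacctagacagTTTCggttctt
Junb, 7.29 kb before the start: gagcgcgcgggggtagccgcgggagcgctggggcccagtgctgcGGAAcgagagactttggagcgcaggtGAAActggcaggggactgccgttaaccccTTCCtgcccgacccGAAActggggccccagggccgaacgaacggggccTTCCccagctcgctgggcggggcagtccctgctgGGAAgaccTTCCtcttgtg
Jun, 11.6 kb before the start: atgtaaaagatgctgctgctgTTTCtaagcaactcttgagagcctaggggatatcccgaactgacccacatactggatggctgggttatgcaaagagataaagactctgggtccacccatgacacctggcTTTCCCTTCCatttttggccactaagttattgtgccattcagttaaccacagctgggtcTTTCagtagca
Fosb, 9.47 kb past the start: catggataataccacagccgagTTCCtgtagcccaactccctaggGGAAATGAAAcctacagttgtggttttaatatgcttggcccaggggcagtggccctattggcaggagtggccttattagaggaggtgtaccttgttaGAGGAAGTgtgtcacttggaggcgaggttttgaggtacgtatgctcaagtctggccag
Junb promoter: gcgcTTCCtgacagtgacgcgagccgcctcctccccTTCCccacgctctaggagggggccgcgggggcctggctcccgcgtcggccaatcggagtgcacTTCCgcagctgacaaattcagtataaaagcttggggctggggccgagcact
Fos promoter: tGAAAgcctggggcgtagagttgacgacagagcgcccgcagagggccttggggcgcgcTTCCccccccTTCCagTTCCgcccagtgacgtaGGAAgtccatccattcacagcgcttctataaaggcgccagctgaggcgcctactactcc

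Batf, which encodes the BATF partner of JunB and JunD, had 1 strong site shared by both factors behind its 3′ end. The gene lies at chr12:87027619-87050037 on the plus strand, and the IRF4 region at chr12:87051564-87052088 is intergenic, 1.77 kb past the gene's end, with the Batf start as its nearest coding start. IRF4 enrichment there was 61.8 and 45.3 in day 1 replicates 2 and 3, and the place was not called in day 1 replicate 1. On day 3 it was 22.8, 37.2 and 49.1 in replicates 1, 2 and 3. The site was thus called in 5 of 6 IRF4 libraries, with the gap in the library of fewest peaks, and no other IRF4 peak lay near Batf in any library. PU.1 enrichment at the same place reached 266 and 461 in the day 1 libraries and 525 and 474 in those of day 3. These PU.1 peaks stood among the top 3.28%, 1.46%, 1.44% and 1.65% of their lists, above every other PU.1 peak near a member.

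The rank of the Batf site in the IRF4 lists differed between libraries of the same day. It stood at 6.07% and 12.2% of the day 1 lists of replicates 2 and 3, counted from the strongest peak. On day 3 it stood at 53.8%, 15.3% and 6.88% of the lists of replicates 1, 2 and 3, so the ranks of the days overlapped. In the group lists it was peak 195 of 2496 on day 1, where its line comes from replicate 2, and 1253 of 1964 on day 3, where its line comes from replicate 1. That difference in rank therefore sets 1 library against 1 other. The positions of the factors lay close together: between 39 and 124 bp apart over the 4 library pairs of day 1 and between 1 and 45 bp over the 6 pairs of day 3.

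PU.1 was also found inside Batf. A weak peak 0.449 kb past the start, in an intron, had an enrichment of 18.0, 20.4, 28.7 and 15.6 in the PU.1 libraries, day 1 before day 3. A stronger intronic peak 18.7 kb past the start had 85.4 in day 1 replicate 2 and 87.5 and 69.2 on day 3. In day 1 replicate 1 the call lay at 19.0 kb with 38.1, too far away to be joined by the 200 bp rule, and the day 1 group list lacks the place. Its presence in the day 3 group list alone is thus no sign of a difference between days. The remaining 5 PU.1 regions near Batf were called in 1 library each or, for the one 16.4 kb before the start, in 2.

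**Figure D1:**
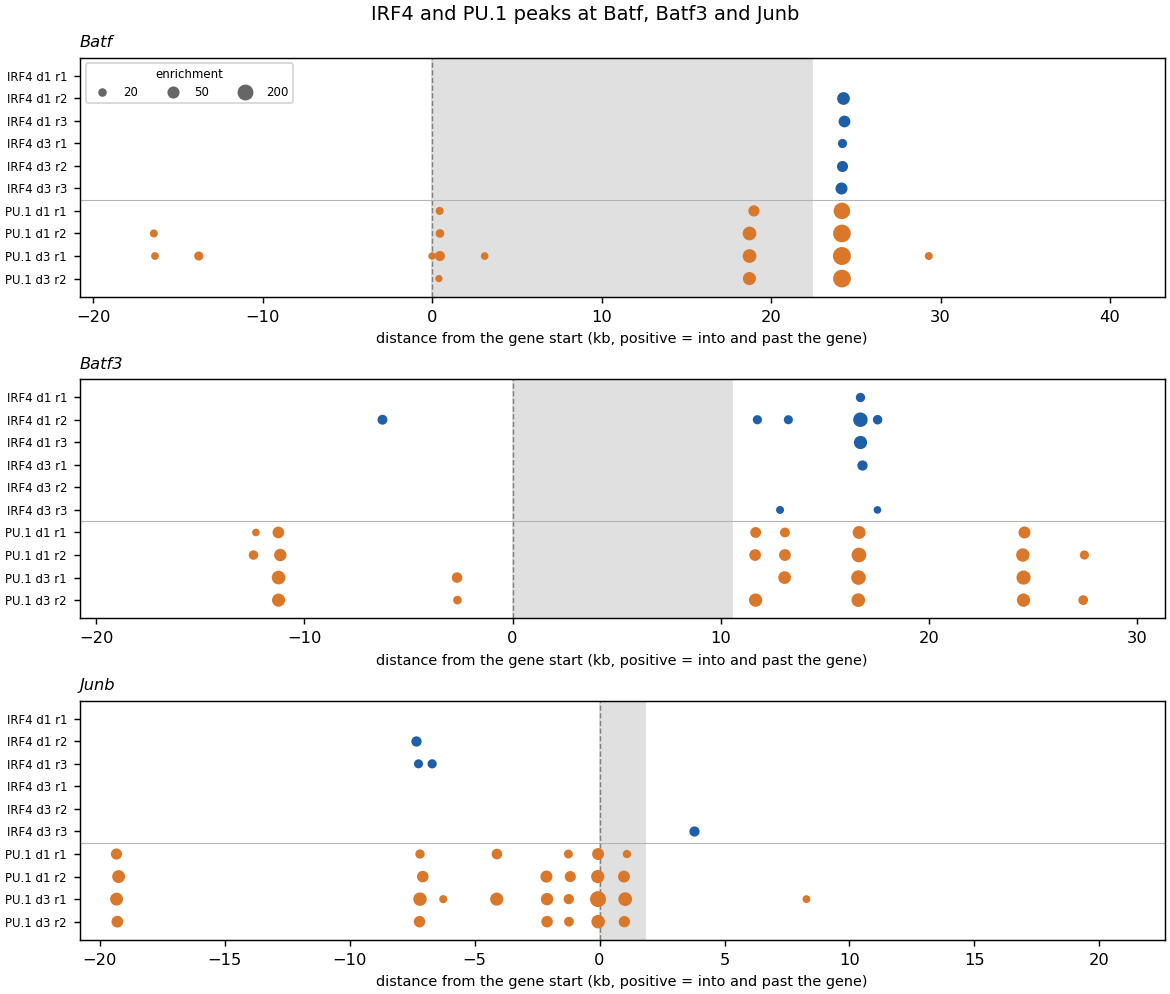
IRF4 peaks (blue) and PU.1 peaks (orange) of every library (d, day; r, replicate) at Batf, Batf3 and Junb, by distance from the gene start in kb; the gene is shaded, the window reaches 20 kb to each side and the dot area grows with the authors' enrichment. At Batf the blue dots form a single column at 24.2 kb above the largest orange dots, at Batf3 they cluster past the gene's end, and at Junb the orange dots at the start have no blue dot above them.

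Batf3, which encodes a close relative of BATF, had more IRF4 regions than any other member, 6, and they lay mostly past its end. The gene is at chr1:192922293-192932822 on the plus strand. Its main region, chr1:192938728-192939240, is intergenic and 6.19 kb past the end. IRF4 enrichment there was 23.7, 115 and 72.9 in the 3 day 1 libraries. On day 3 it was 29.7 in replicate 1, with no call in replicates 2 and 3. In day 1 replicate 2 this was peak 65 of 9326, the highest rank of any IRF4 peak near a member. PU.1 was called there in every library, with 66.2 and 124 on day 1 and 118 and 82.8 on day 3. On day 1 the positions of IRF4 and PU.1 were 45 to 73 bp apart, and on day 3 they were 167 and 176 bp apart.

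A neighbouring region at chr1:192939652-192940017 was called by IRF4 in 1 library of each day, with 24.5 in day 1 replicate 2 and 16.7 in day 3 replicate 3. None of the PU.1 libraries gave a peak there, which set it apart from the other 3 regions called in at least 2 IRF4 libraries. The other 4 IRF4 regions of Batf3 rested on 1 library each, 3 of them on day 1 replicate 2, which alone gave 5 of the 10 IRF4 peaks near this gene. PU.1 was steady at 3 regions, with calls in all 4 libraries 11.2 kb before the start (43.8, 54.8, 85.6 and 70.4), 16.6 kb past it (the shared site) and 24.6 kb past it (48.5, 76.7, 101 and 74.3). A PU.1 region 2.66 kb before the start was called in both day 3 libraries (32.0 and 20.3) and in neither of day 1, and one 12.4 kb before the start in both day 1 libraries (16.7 and 24.5) and in neither of day 3. With 2 libraries a day no exact test of such a split can go below 0.33.

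**Figure D2:**
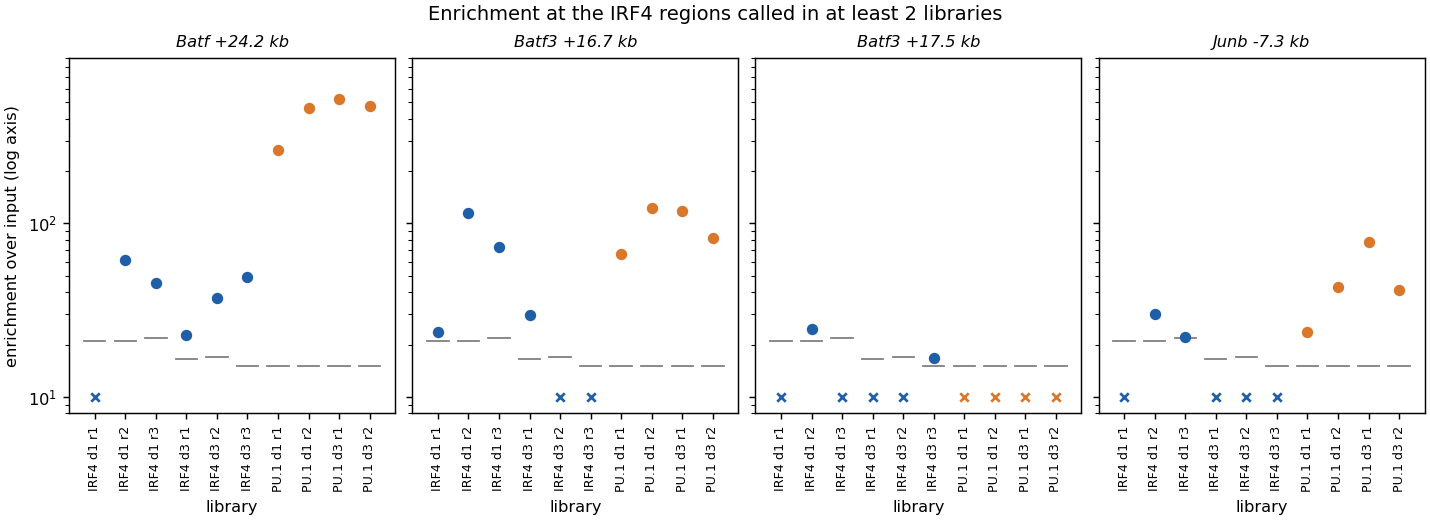
The authors' enrichment over input (log axis) in each library at the 4 regions called in at least 2 IRF4 libraries, for IRF4 (blue) and PU.1 (orange); crosses at the bottom stand for libraries without a call and grey bars for the lowest enrichment in that library's list. PU.1 lies between 266 and 525 at the Batf region and has no call at the second Batf3 region.

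Junb, which encodes the Jun protein best known as a BATF partner, carried PU.1 at its start in every library and IRF4 only further away. The gene is at chr8:87500811-87502617 on the minus strand. At 0.06 kb before the start, PU.1 enrichment came to 47.5 and 71.2 on day 1 and to 205 and 79.9 on day 3. In the exon, 1.01 kb past the start, the values were 19.0 and 46.8, then 86.5 and 40.0. By rank from the strongest peak, the start peak stood at 32.5% and 20.04% of the day 1 lists and at 6.97% and 20.06% of those of day 3, highest in day 3 replicate 1. PU.1 was further called in all libraries 1.23 kb, 7.18 kb and 19.3 kb before the start, the last in an exon of Hook2. With 27 library peaks each, Junb and Jund had the most PU.1 peaks of the members.

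The IRF4 region of Junb in the day 1 group list, chr8:87509707-87510043, is intergenic and 7.29 kb before the start, and its nearest coding start is that of Hook2, at 4.58 kb. IRF4 enrichment was 29.8 in day 1 replicate 2 and 22.1 in day 1 replicate 3, near the bottom of the latter list at 95.5%. Neither day 1 replicate 1 nor any day 3 library had it. PU.1 was called there in every library, with 23.6 and 43.0 on day 1 and 78.4 and 41.4 on day 3. A further IRF4 region 6.70 kb before the start (day 1 replicate 3, 23.0) and one 3.79 kb past the start (day 3 replicate 3, 29.3, with the Prdx2 start nearest) were each called once and without PU.1. Hook2, Prdx2 and 1 more coding gene lie within 20 kb of Junb, so these regions cannot be given to 1 gene by distance.

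Jun, the founding member of the family, had little IRF4. Its gene is at chr4:94715725-94718913 on the minus strand. One IRF4 peak of day 1 replicate 2 lay 15.4 kb past the start (27.7) and one of day 3 replicate 1 lay 11.6 kb before it (16.6, at 98.5% of that list). The latter place, shown above with its EICE, had PU.1 in all libraries, with 41.0 and 43.3 on day 1 and 54.2 and 52.2 on day 3. PU.1 was also called in every library in the Jun exon 1.75 kb past the start, with 15.5, 42.6, 37.9 and 25.7. Near Jun the libraries held 5, 3, 5 and 3 PU.1 peaks, the same mean of 4 on both days.

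Jund, a Jun protein that many resting cells also make, was near IRF4 in 1 library only. The gene is at chr8:73221638-73224515 on the plus strand. Day 1 replicate 3 had IRF4 peaks 2.35 kb (27.4) and 2.12 kb (23.1) before the start. At the first of these PU.1 was called in every library, with 81.0 and 103 on day 1 and 118 and 96.7 on day 3. PU.1 was present in all libraries also 14.8 kb before the start, nearer to Lsm4 (29.7, 36.2, 43.1 and 40.9). The PU.1 regions 19.8 kb before, 1.67 kb past and 22.4 kb past the start were called in both day 3 libraries and in no day 1 library, all with an enrichment of at most 21.9, that is, in the weaker part of their lists. The first of them lies in an exon of Lsm4, 0.297 kb from the Lsm4 start. The last has the Pde4c start nearest, at 3.55 kb, so these regions cannot be given to Jund by distance.

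Fos, an immediate early gene whose product pairs with Jun proteins, had PU.1 on its promoter in every library. The gene is at chr12:86814840-86818223 on the plus strand. At 0.054 kb before the start, PU.1 enrichment came to 35.4 and 32.2 on day 1 and to 65.1 and 33.0 on day 3. These stood at 43.9% and 47.0% of the day 1 lists and 25.9% and 48.7% of the day 3 lists, so that day 3 replicate 1 ranked it highest, as at Junb. Upstream, PU.1 was called in 3 libraries each at 5.09, 10.9, 14.8 and 18.9 kb before the start. IRF4 was called once, 14.3 kb past the start in day 3 replicate 3 (15.2), at 95.5% of that list.

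Fosb, which encodes another Fos protein of the early response, had PU.1 upstream and IRF4 only in single libraries. The gene is at chr7:19888070-19895394 on the minus strand. PU.1 16.0 kb before the start was called in all libraries, with 75.4 and 149 on day 1 and 136 and 86.3 on day 3. At 8.80 kb before the start it reached 77.8 and 131 in the day 1 libraries and 108 in day 3 replicate 2, with no call in day 3 replicate 1. The promoter peak, 0.324 kb before the start, was called in day 1 replicate 2 (18.9) and on day 3 (41.8 and 18.7). IRF4 peaks lay 9.47 kb past the start in day 1 replicate 2 (22.8, in the sequence shown above, with PU.1 in 1 library) and 18.3 kb past it in day 1 replicate 3 (22.4, in an intron of Rtn2). The latter peak has the Rtn2 start nearest, at 0.665 kb.

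Fosl2, which encodes the Fos protein Fra-2, was the member with least binding. The gene, chr5:32438845-32460204 on the plus strand, is 21360 bp long, the longest member after Batf. No IRF4 library had a peak near it. PU.1 was called 1.51 kb before the start in replicate 2 of each day, with 15.5 on day 1 and 28.9 on day 3, and in neither replicate 1.

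**Figure D3:**
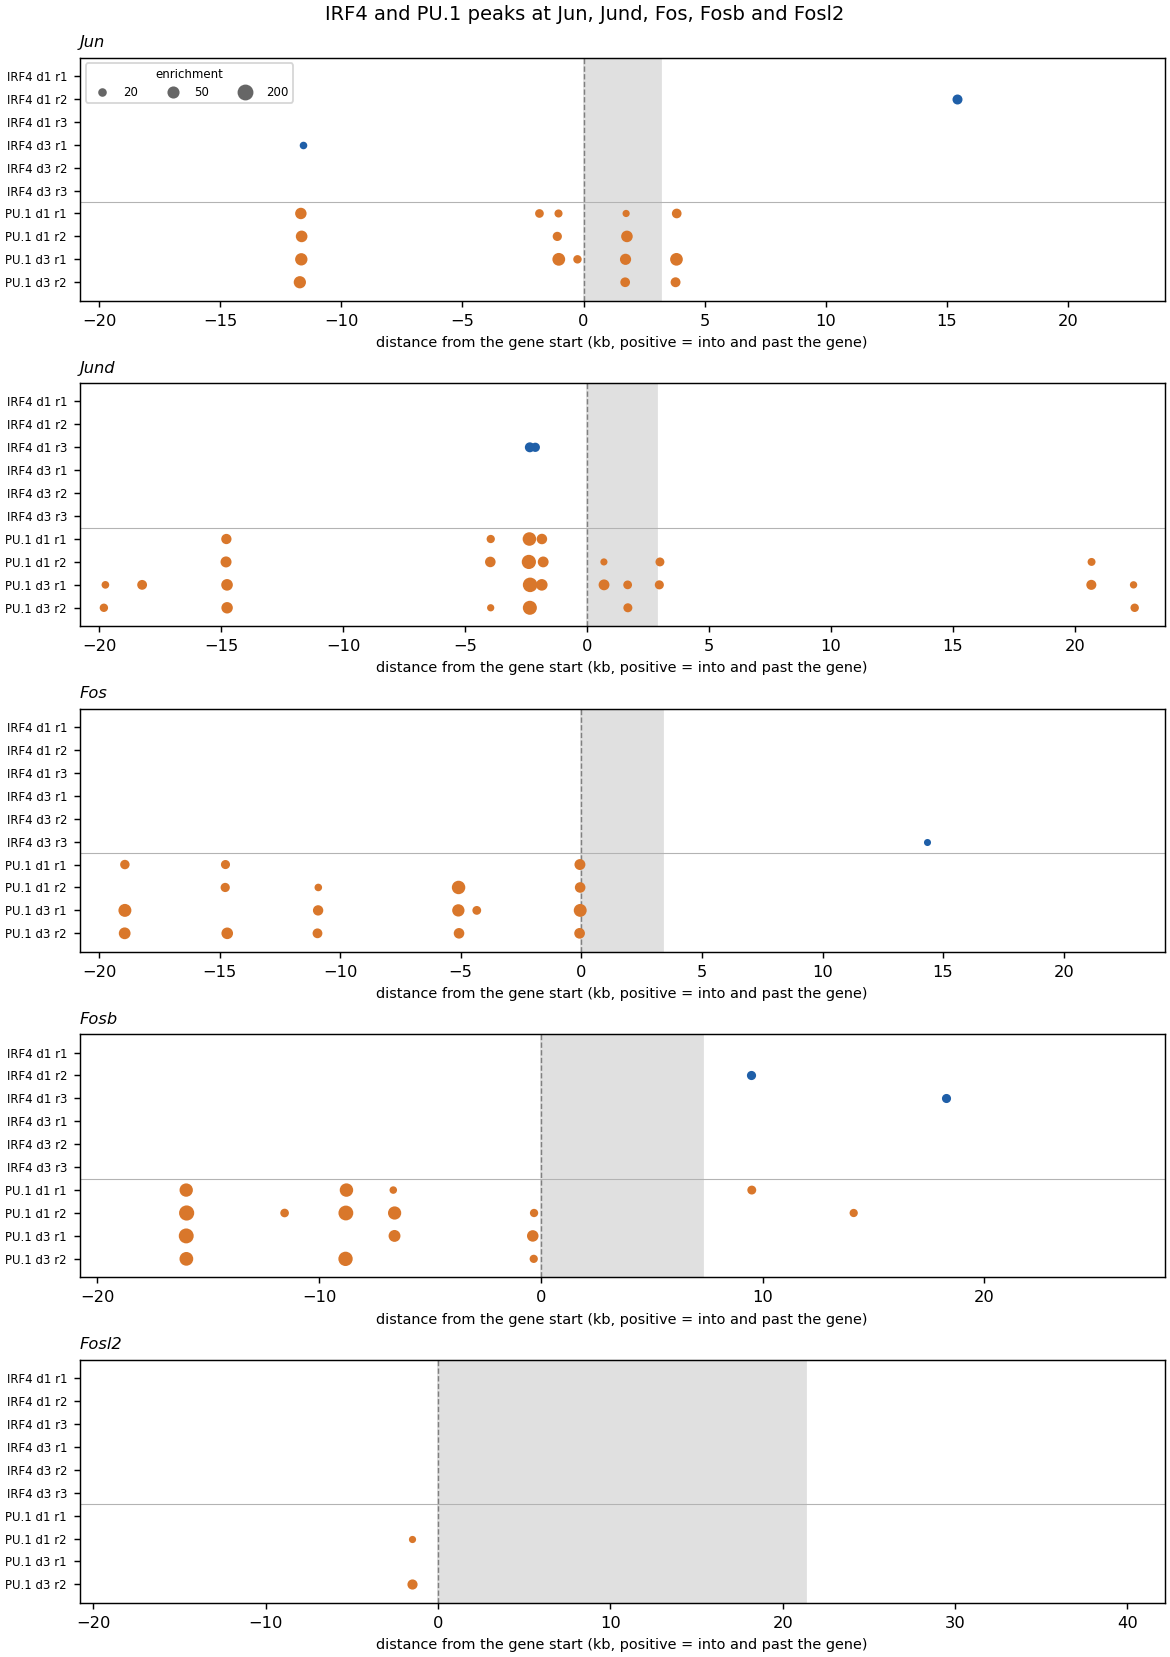
IRF4 peaks (blue) and PU.1 peaks (orange) of every library (d, day; r, replicate) at Jun, Jund, Fos, Fosb and Fosl2, by distance from the gene start in kb; the gene is shaded and the dot area grows with the authors' enrichment. No place has blue dots from more than 1 library, while columns of 4 orange dots mark the PU.1 places called in every library. Blue dots stand above such columns at Jun, 11.6 kb before the start, and at Jund, 2.35 kb before it. At Fosb, 9.47 kb past the start, a blue dot stands above 1 orange dot.

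In the group lists, 3 of the 8 genes were near an IRF4 peak on day 1 (Batf, Batf3 and Junb), where 10.0% of all coding genes and 6.92% of those no longer than Batf were. On day 3 it was 1 of 8 (Batf), beside 8.46% and 5.58%. The day 1 count fell to 1 of 8, Batf3 alone, when the list was rebuilt without day 1 replicate 2 or without replicate 3, because the Batf and Junb sites were, of the day 1 libraries, called in those 2 only. Near PU.1 were 7 of 8 genes on day 1, all but Fosl2, where 52.2% of all coding genes and 44.2% of the genes no longer than Batf were. On day 3 the same 7 of 8 were, beside 54.4% and 46.5%. The members' median was 3 PU.1 peaks on day 1 and 3.5 on day 3, where the median over all coding genes was 1 and over genes no longer than Batf 0. For IRF4 the median was 0 in the members and in all genes. These genes were picked by name, with earlier results of these data known, and not at random, so the shares are a description without a test.

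**Figure D4:**
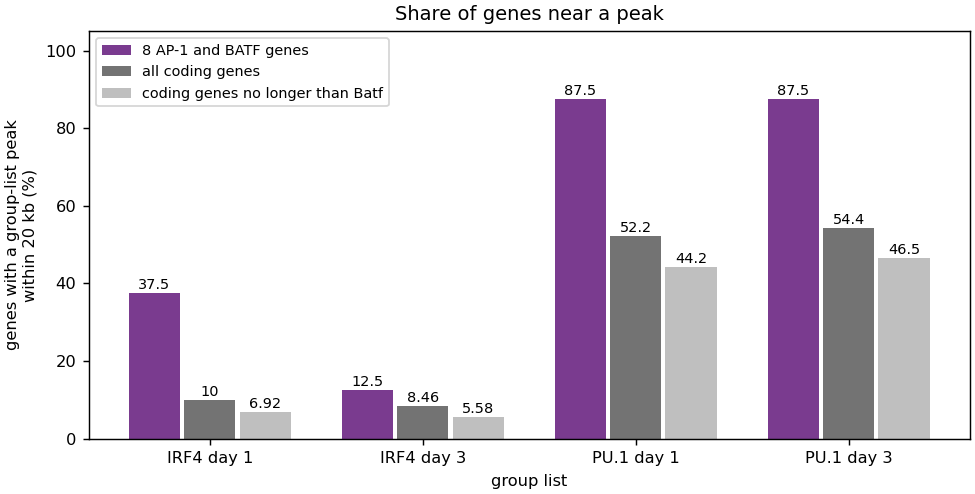
Share of genes (%, axis from 0) with a peak of the group list in the gene or within 20 kb, for the 8 AP-1 and BATF genes (purple), all coding genes (dark grey) and coding genes no longer than Batf (light grey). The 8 genes stand at 37.5 and 12.5 for IRF4 on days 1 and 3 and at 87.5 for PU.1 on both days.

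Over the libraries IRF4 calls returned less often than PU.1 calls, near the members as over all regions. The 2 measures are unlike, since there were 6 IRF4 and 4 PU.1 libraries and the IRF4 lists were shorter. A peak of any IRF4 library lay near 7 of 8 genes, beside 49.7% of all coding genes, but near 0 of 8 in every IRF4 library (2.01% of all genes). Batf3 was near a peak of every day 1 library (3.17% of all genes) and Batf near one of every day 3 library (4.83%). For PU.1, any library gave 8 of 8 (73.5%) and every library 7 of 8 (50.9%); taken by day, every library gave 7 of 8 on day 1 (54.9%) and on day 3 (58.8%). Of the 17 IRF4 regions 13 were called in 1 library, or 76.5%, where 79.1% of all IRF4 regions were. Calls in at least 2 libraries numbered 4 of 17, beside 20.9%. Of the 57 PU.1 regions 14 were called in 1 library, beside 36.8%, and 16 in all libraries, or 28.1% beside 24.7%. At least 2 libraries called 43 of 57, beside 63.2%. No IRF4 region near a member was called in every library of 1 day and in none of the other, which 0.189% of all IRF4 regions were for day 1 and 0.359% for day 3. For PU.1 there were 1 of 57 such regions for day 1 and 4 of 57 for day 3, named above at Batf3 and Jund, beside 2.38% and 3.78%. The members' IRF4 regions were thus about as often seen once as IRF4 regions elsewhere.

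The distance from the gene start was taken for each library peak near a gene. Of the 147 PU.1 peaks near members 21 (14.3%) lay within 1 kb of the start, beside 11.9% over all coding genes and 15.0% over those no longer than Batf, when each pair of a gene and a nearby peak is counted. Of the 26 IRF4 peaks near members 0 did, beside 7.68% and 10.9%. A site counts once for each library that called it, so these 26 peaks stand for 17 regions. The Batf site is counted 5 times and the main Batf3 site 4 times, both far from the start. The median distance for PU.1 was 7.20 kb in the members, 15.6 kb over all coding genes and 10.4 kb over those no longer than Batf. For IRF4 these medians were 14.9, 17.4 and 11.2 kb. In the group lists PU.1 lay within 1 kb of the start of 3 of 8 genes on day 1 (Batf, Junb and Fos), where 12.3% of all genes had such a peak. On day 3 Fosb joined them, giving 4 of 8 beside 16.6%. IRF4 lay there in 0 of 8 genes on both days, beside 0.827% and 0.576% of all genes, a class that few genes fall in.

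**Figure D5:**
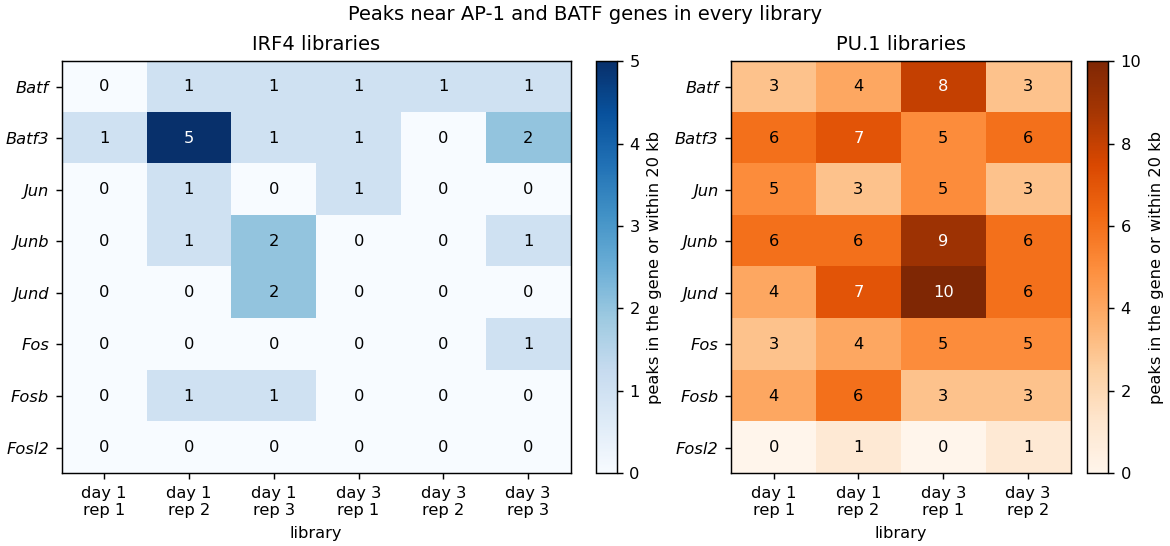
Number of peaks in each gene or within 20 kb of it, for every IRF4 library (left) and every PU.1 library (right); darker cells hold more peaks, and the colour scales of the panels differ. Batf has 1 IRF4 peak in 5 of 6 libraries, Batf3 up to 5, and all genes except Fosl2 have PU.1 peaks in each of the 4 libraries.

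The days were compared by the number of peaks near each gene and library, with an exact two-sided permutation test adjusted by the Benjamini-Hochberg method over all coding genes with a peak. With 3 against 3 libraries p cannot go below 0.1, and with 2 against 2 not below 0.33, so no gene could pass 0.05. For IRF4, 0 of 11061 genes passed (percent called 0), 0 had an unadjusted p under 0.05, and 59 genes (0.533%) reached the smallest p, no member among them. Batf3 had 2.33 ± 2.31 IRF4 peaks (SD, n = 3) on day 1 and 1 ± 1 on day 3, a difference of -1.33 (exact permutation p = 0.7, adjusted p = 1). Without day 1 replicate 2, which held 5 of these peaks, the difference was 0, and without day 1 replicate 1 or replicate 3 it was -2. The other 6 members with an IRF4 peak differed by at most 0.667 peaks, with an exact permutation p of at least 0.4 and an adjusted p of 1.

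For PU.1, 0 of 16340 genes passed (percent called 0), 0 had an unadjusted p under 0.05, and 2141 genes (13.1%) reached the smallest p. Of the members Fos and Fosb did. Fos had 3 and 4 PU.1 peaks on day 1 and 5 and 5 on day 3, so the days did not overlap (difference 1.5, exact permutation p = 0.33, adjusted p = 1). Fosb had 4 and 6 on day 1 and 3 and 3 on day 3 (difference -2, exact permutation p = 0.33, adjusted p = 1). Both differences depended on the window: at 5 kb around the gene they were 0.5 for Fos and 0 for Fosb, and at 50 kb 0 and -4.5. Jund had 5.5 ± 2.12 and 8 ± 2.83 peaks (SD, n = 2) on days 1 and 3, from 4 and 7 and from 10 and 6, so its days overlapped. Near Batf, Junb and Jund the highest number was that of day 3 replicate 1, and without that library the differences of 2, 1.5 and 2.5 became -0.500, 0 and 0.5.

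PU.1 was looked for at the members' IRF4 peaks. All 3 IRF4 peaks of the day 1 group list had a PU.1 peak of that day less than 200 bp away (100%, 95% Clopper-Pearson interval 29.2 to 100), where 56.8% of the 2496 peaks of the whole list did. The 1 peak of day 3 did too (interval 2.5 to 100), beside 64.1% of 1964. With so few peaks the intervals hold the values of the whole lists. On day 1 the Junb IRF4 peak, a line of replicate 2, lay 162 bp from PU.1 of replicate 1 and 273 bp from PU.1 of replicate 2. Under 100 bp, or without PU.1 day 1 replicate 1, the day 1 count was 2 of 3. By gene, 3 of 8 members had such a joint site on day 1 and 1 of 8 on day 3, beside 6.31% and 6.03% of all coding genes. Over the libraries, 8 of the 17 IRF4 regions had PU.1 in any library, beside 35.1% of all IRF4 regions, and 5 of 17 in every library, beside 18.1%. Among regions called in at least 2 IRF4 libraries 3 of 4 had PU.1, beside 73.0%, and among those called once 5 of 13, beside 25.1%. A gene with an IRF4 peak in the day 1 group list and not in that of day 3 was found in 2 of 8 cases, Batf3 and Junb, beside 4.62% of all genes, and the opposite in 0 of 8, beside 3.05%. The Batf3 site was nonetheless called in 1 day 3 library.

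The sequence elements of the members' IRF4 regions were counted on both strands of 200 bp. The EICE (GGAA and GAAA with 2 bases between) was in 2 of 17 regions, at Jun and Fosb as shown above, beside 9.51% of all IRF4 regions and 22.8% of those called in at least 2 libraries. The ISRE, an interferon response element (GAAA and GAAA with 2 bases between), was in 2 of 17, at Batf3 13.3 kb past the start and at Junb 3.79 kb past it, both as GAAAGTGAAA, beside 6.96% and 10.5%. The AP-1 site TGACTCA was in 1 of 17, at Junb 6.70 kb before the start, beside 12.3% and 21.9%. The AICE, searched as GAAA directly followed by TGACTCA or TGAGTCA, or as TTTC and 4 free bases before either of them, was in 0 of 17, beside 1.48% and 3.41%. The PU.1 site GAGGAAGT was in 1 of 17 (5.27% and 10.5%) and the CRE TGACGTCA in 0 of 17 (0.384% and 0.454%). An EICE and a PU.1 site can overlap by the GGAA core, which happened in none of the 17 regions, and the AICE holds the AP-1 site.

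All 5 regions with a full motif were called in 1 IRF4 library each, and none of the 4 regions called in at least 2 libraries held any of these motifs. The Batf region held, on the minus strand, GGAATGAAA at chr12:87051776-87051784, which is the EICE with 1 base in place of 2 between its parts; 2.89% of the IRF4 regions called in at least 2 libraries hold that form. The pair is seen as TTTCaTTCC in the sequence above, and it was looked for after the values were known. With 1 letter allowed to differ, 2 of these 4 regions held an EICE, beside 64.1% of all regions called in at least 2 libraries. For the ISRE it was 2 of 4 beside 61.9%, and for the AP-1 site 2 of 4 beside 63.3%. The AP-1 matches were TGACTCC at Batf and TGACTCT at Batf3, 16.7 kb past the start. The short cores say little by themselves, since GGAA was in 95.2% and GAAA in 97.0% of such regions. Among the 57 PU.1 regions the PU.1 site was in 9 (15.8%), beside 22.6% of all PU.1 regions, and the EICE in 4 (7.02%), beside 10.5%. In the promoters printed for Junb and Fos, GGAA or TTCC occurs 3 and 4 times, and 80.1% of all 22238 promoters of 150 bp hold it.

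Other genes of the AP-1 pathway, from lists drawn up for this report, gave the following counts. Of 28 other AP-1 and related leucine zipper genes, 4 were near an IRF4 group-list peak on day 1 and 5 on day 3, and 19 and 25 were near PU.1. Of 31 genes that signal to AP-1, such as MAP kinases and their phosphatases, 9 and 5 were near IRF4 and 28 and 24 near PU.1. Of 10 known target genes of BATF with IRF4 in lymphocytes, 2 and 3 were near IRF4 and 8 and 8 near PU.1. The shares of all coding genes given above, 10.0% and 8.46% for IRF4 and 52.2% and 54.4% for PU.1, are the base for these counts, though genes in these lists differ in length. An IRF4 region called in all 6 libraries, a class of 1.46% of all IRF4 regions that held 0 of the members' 17, lay near 2 genes of these lists, Atf3 and Bach2. The share of all coding genes near such a region was not counted. By the looser measure of a peak of every IRF4 library within 20 kb, at the same place or not, it was 2.01%. Bach2 is a long gene with 27 IRF4 regions in or near it, 18 of them called in 1 library.

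Atf3, a stress-induced relative of the Jun and Fos proteins, had its region 14.7 kb before the start, at chr1:193021713-193022210. IRF4 enrichment there came to 29.1, 49.9 and 68.7 on day 1 and to 34.2, 47.8 and 48.4 on day 3, the region held an EICE, and PU.1 was called in all 4 libraries. Bach2, a repressor of plasma cell differentiation that binds with small Maf proteins, had 2 such regions in introns, 120.0 and 166.5 kb past its start. Their IRF4 enrichment was between 40.4 and 165 and between 58.4 and 90.9 over the libraries. The Batf site missed this class by its lack of a call in IRF4 day 1 replicate 1.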

How the data were processed

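IRF4 was profiled in 3 and PU.1 in 2 ChIP-seq libraries per day. The design text of the series names mm9 as the reference and QuEST as the method the authors used to get enrichment relative to input. The aligner and the version and settings of QuEST are not given in the sources here. The deposited value per peak is the authors' linear ratio (fold enrichment) to input, used only to describe or rank peaks within a list. Every line of a group list also stands in a library list; repeated lines (7 and 5 in the PU.1 lists) counted once. Peak positions are printed as deposited, and whether they count from 0 or 1 is not given. Replicate numbers are those of the sample descriptions; the sample titles number the IRF4 day 3 and the PU.1 libraries differently, and some titles carry a pair of numbers.

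Genes were the 22238 protein-coding genes of GENCODE M1 on mm9. Peaks less than 200 bp apart counted as shared. Motifs were searched on both strands. Days were compared with exact permutation tests over libraries, tested on simulated data (Python 3.11.15, numpy 2.4.6, pandas 2.3.3, scipy 1.17.1, matplotlib 3.10.9). The input library enters no comparison. All 8 members are named, and of the other pathway genes those with a region in all 6 IRF4 libraries; Cebpd of those lists was not matched. The members and lists were chosen with earlier results of these data known. Alternatives were other windows, distances and motif widths, the stronger 50% of lists, equal list lengths, each replicate left out and a replicate block.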

Additional observations from a re-analysis of the deposited data

How the results depend on the processing

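Of the main results, 93 values under an alternative stayed within 1.5 times the main value or its interval and 23 did not. Part of the 93 had little or no room to move. The count of genes passing 0.05 had to be 0 in every setting. The shares with PU.1 were judged against intervals of 29.2 to 100 on day 1 and 2.5 to 100 on day 3. A day 1 share of 2 of 3 thus counted as kept. Of the members' differences between days, 108 kept their direction, 23 stayed at 0, 16 became 0, 19 left 0 and 2 reversed. With 5 kb around genes, the day 1 IRF4 count was 1 member and 1 peak, the PU.1 peaks were 13 on day 1 and 14 on day 3 (main 25 and 27), and the Junb IRF4 difference reversed to 0.33. With 50 kb, PU.1 peaks were 40 on day 1 and 40 on day 3, the latter within 1.5 times its main value. With the stronger 50% of each list, IRF4 gave 1 member and 1 peak on day 1 and 0 and 0 on day 3, and PU.1 peaks were 10 and 17. With each replicate left out, IRF4 members and peaks ranged from 1 to 3 on day 1. For PU.1 this left 1 library of the day, whose whole list was counted. The PU.1 peaks were then 31 to 38 on day 1 and 33 to 45 on day 3. These are counts of single libraries and not reduced forms of the group lists. The Batf PU.1 difference ranged from -0.500 to 4.5 and reversed without PU.1 day 3 replicate 1. In 100 bp windows the EICE was in 1 region, the ISRE in 0 and the AP-1 site in 0; with 1 letter allowed to differ, an alternative added after seeing the data, they were in 10, 11 and 11 of 17 (58.8%, 64.7% and 64.7%), beside 43.6%, 45.2% and 55.2% of all IRF4 regions.

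Same-numbered libraries did not all deviate together (correlations over genes -0.000914, -0.261 and 0.301 for IRF4, -0.115 and -0.115 for PU.1). Not every IRF4 library correlated best with its own number. With 2 libraries a day the deviations mirror each other, so both PU.1 values are 1 number by construction. Such correlations of peak counts cannot decide whether same-numbered libraries shared a culture or mouse, and the main test left the libraries unpaired. The numbers in the IRF4 titles would pair day 1 replicates 2 and 3 with day 3 replicates 1 and 2, whose correlations were 0.0180 and -0.253. With the replicate block 0 genes passed for both factors, as without it, and with the PU.1 numbers crossed, added after seeing the data, 0 genes passed. In this design no gene's p could pass 0.05. A smaller window or a shorter list holds fewer peaks to count; the cause of the other shifts was not tested. Depth is unknown, so weak calls and missing calls cannot be weighed.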

Other observations

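Fos and Batf lie on the same stretch of chromosome 12, with starts 212.8 kb apart, and Jdp2, which encodes another leucine zipper protein that pairs with Jun, lies between them, 122.1 kb past the end of Fos and ending 46.8 kb before Batf. Jdp2 is named here after its values were seen. An IRF4 region 6.25 kb before the Jdp2 start, intergenic at chr12:86933941-86934327, was called in 5 of 6 IRF4 libraries, as was the Batf region, though not in the same 5. Its IRF4 enrichment was 26.2, 138 and 89.8 on day 1 and 53.0 and 44.8 in day 3 replicates 1 and 3. It was called by PU.1 in 3 libraries and held an EICE and an AP-1 site, whereas the Batf region held neither in full. Within the lists that called both, the authors' enrichment was higher at Jdp2 than at Batf in day 1 replicates 2 and 3 and in day 3 replicate 1 (53.0 against 22.8), and lower in day 3 replicate 3 (44.8 against 49.1). The Fos end of the stretch had 1 IRF4 call in 1 library, 14.3 kb past the Fos start.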
